A study of Mus musculus with 9 samples.

Results

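The genes described here are those whose polysome-bound mRNA signal at metaphase I (MI) lay outside that of both meiotic arrests in mouse oocytes, the germinal vesicle (GV) arrest before it and the metaphase II (MII) arrest after it. A gene was included when its 3 MI arrays all lay above, or all lay below, the 6 GV and MII arrays. Of 18193 genes measured, 506 met this rule (2.78%): 299 had MI arrays above (1.64%) and 207 had MI arrays below (1.14%). The groups were MI oocytes collected 4 h after human chorionic gonadotropin (hCG), GV oocytes collected at 0 h and MII oocytes collected at 14 h, with 3 arrays each. All mice had received pregnant mare's serum gonadotropin (PMSG) 48 h before hCG. Strain, age and the number of oocytes or mice behind an array are not stated in the labels, and the MI samples also carry the code pGVB, which the labels do not explain. RNA recovered from polysomes was copied to cDNA, amplified and hybridised to Affymetrix Mouse Genome 430 2.0 arrays. Values are deposited intensities on a linear scale, given for replicates 1, 2 and 3 of a stage in that order. Differences are between stage means of log2(intensity + 16), a scale on which dim genes appear to change less than they did. The contrast is the MI mean minus the average of the GV and MII means.

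Fully grown oocytes rest in prophase of meiosis I, held there by cyclic AMP and protein kinase A, and transcribe almost nothing once they resume meiosis. Which proteins are made during maturation is therefore set by which stored mRNAs are recruited to ribosomes, kept off them or destroyed, and cytoplasmic polyadenylation through elements bound by Cpeb1 is the best known control. At metaphase I the oocyte builds its first spindle and keeps the anaphase-promoting complex (APC/C), the ubiquitin ligase that destroys cyclin B and securin, in check until homologous chromosomes are ready to part. A transcript that is highest or lowest at this stage alone would be missed by a comparison of the arrests with each other.

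Array medians lay between 12.41 and 13.24 and 53.1% to 54.8% of probe sets read under 16 on an array, which is the background range here. As a list, oocyte markers were high on every array, with list medians between 10.89 and 12.57 on the log2(intensity + 16) scale. Single markers were not: Figla read 15.48, 24.54 and 20.25 on the MII arrays. Ddx4 read 15.98 on MI 3, against 368 and 330 on MI 1 and MI 2, while 14 of the 15 markers read 100 or more on MI 3. Array MI 3 differed from the other MI arrays in several ways. Its granulosa, cumulus and theca cell markers summed to 2496 over 30 genes, against 1286 and 1634 on the other MI arrays, 1282 to 1712 on the GV arrays and 1090 to 1429 on the MII arrays. Of these 30 markers, 11 were highest on MI 3, including Inhba, Vim, Ptgs2, Has2 and Fst. The 11 also include Fshr, which like Cyp17a1 read under 16 on all 9 arrays. Col3a1 is another of them, at 19.67 on MI 3 against 19.25 and 19.3 on MI 1 and MI 2. The rest of the 30 were highest elsewhere. Star, Inha and Foxl2 read 403, 132 and 95 on GV 3, their highest array, against 88.9, 60.6 and 38.6 on MI 3. Cyp11a1 was highest on GV 1, Gja1 on GV 2 and Nr5a2 on MII 2. The oxidative phosphorylation genes of MI 3 summed to 133362, against 207583 and 203935 on MI 1 and MI 2. Its mitochondrial ribosomal protein genes summed to 51937, against 75364 and 74831, and its genes of meiotic arrest signalling to 19576, against 28474 and 32617. Its 95th percentile was 1175, against 1463 and 1452, and the geometric mean of its control probe sets was 187, the highest of the 9 arrays. The part of somatic RNA and of these differences in the results was not tested, and in bulk samples a change in the number of such cells and a change in RNA per cell cannot be told apart.

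In limma, 36 genes passed the contrast with MI higher (0.198%) and 2 with MI lower (0.011%), where a pass is a p under 0.05 after Benjamini-Hochberg adjustment over all genes. At an unadjusted p under 0.05 these counts were 1455 (8%) and 605 (3.33%). The step between MI and GV alone gave 0 genes in either direction, with 681 higher (3.74%) and 627 lower (3.45%) at an unadjusted p under 0.05 and a smallest adjusted p of 0.178. The step between MI and MII gave 1233 higher (6.78%) and 462 lower (2.54%). No gene passed both steps in limma, while 166 genes were higher and 73 lower at MI in both at an unadjusted p under 0.05. Of those, 132 and 62 belonged to the genes with MI arrays apart. The rule for inclusion reads the same arrays as these fits, so the p of a member describes its size and spread and is no independent evidence for the member. All 38 genes that passed the contrast also passed the step between MI and MII, so a pass in the contrast can rest on the MII arrays alone. Leaving out MII 1 gave 66 higher and 4 lower, and leaving out any other array gave 2 to 9 higher and 0 lower.

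The 299 genes above exceeded the nearer arrest by a median of 0.67 on the log2 scale (quartiles 0.42 and 1.14, highest 2.73), and 92 of them did so by 2-fold or more. For 206 of them the nearer arrest was GV and for 93 it was MII. Their median intensity was 196 at MI, 67.4 at GV and 38.1 at MII. The 207 genes below lay nearer to the arrests, by a median of 0.52 (quartiles 0.32 and 0.87, largest 2.14), with 42 at 2-fold or more. Their median intensity was 19.3 at MI, 55.9 at GV and 59.3 at MII. Both arrests were within 2-fold of each other for 225 of the genes above (75.3%) and 189 of the genes below (91.3%), against 70% of all genes. The gap between the closest MI array and the closest arrest array was small, with a median of 0.13 above and 0.11 below on the log2 scale, and it reached 2-fold for 6 genes above and 0 below. The highest MI array was MI 3 for 119 of the genes above, MI 2 for 94 and MI 1 for 86, and the lowest was MI 3 for 95 of the genes below, MI 2 for 62 and MI 1 for 50. When arrays were rescaled in 3 other ways (quantile, median, 95th percentile), 144 of the genes above and 162 of those below kept their MI arrays apart in every one, and 38 and 3 kept them apart in none.

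**Figure D1:**
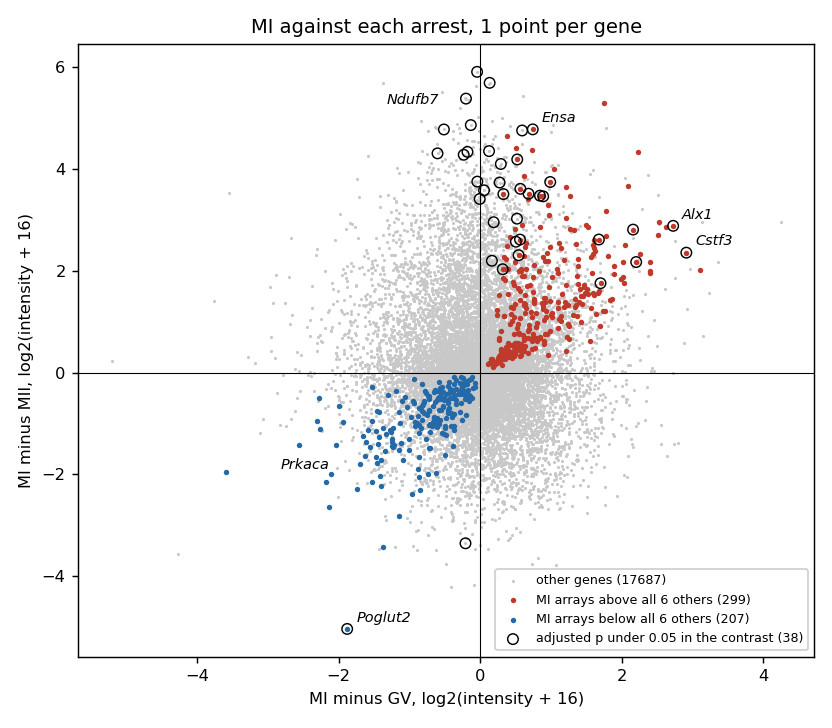
Each point is 1 gene, with MI minus GV across and MI minus MII up, both on the log2(intensity + 16) scale. The 299 genes with MI arrays above lie in the upper right and the 207 with MI arrays below in the lower left, while many of the 38 ringed genes, which passed the contrast, lie near 0 on the GV axis.

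Of the 38 genes that passed the contrast, 18 had MI arrays apart, 17 above and Poglut2 below. The other 20 did not, such as Ndufb7, and 19 of these were higher at MI than the average of the arrests. The 17 genes above fall into a set that was high at GV and MI and low at MII, and a smaller set that was low at both arrests. In the first set stood Ensa, whose protein inhibits the phosphatase PP2A-B55 once the kinase Mastl has phosphorylated it. Ensa read 759.8, 653 and 536 on the MI arrays, against 471, 323 and 355 on the GV arrays and 6.1, 11.2 and 7.08 on the MII arrays. All MI arrays were above the highest GV array and the MII arrays were near background, with no overlap between any of the stages. The contrast was 2.76 ± 0.20 (SE) with an adjusted p of 0.00737 in limma, a smallest value of all genes that Ndufb7 shared, and the step from GV was 0.74 (adjusted p = 0.547) beside 4.78 from MII (adjusted p = 0.00026). It passed in 8 of 9 fits that each left out 1 array, the exception being the fit without MI 2 (adjusted p = 0.0626), and its adjusted p over 19 alternative settings lay between 0.00426 and 0.0907, the highest being with replicate number as a block, where no gene passed. A second Ensa probe set, with 189, 576 and 817 on the MI arrays, read 247, 12.1 and 70.0 on the GV arrays and 18.5, 12.5 and 23.9 on the MII arrays, so MI 1 lay below GV 1 there.

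Eif1b, a paralogue of the start codon selection factor Eif1, read 4918, 5018 and 4519 on the MI arrays, against 3995, 2741 and 3114 on the GV arrays and 404, 444 and 304 on the MII arrays. Its signal was high at MI and GV and far lower at MII, with MI 3 closest to GV 1. The contrast was 2.09 ± 0.20 (adjusted p = 0.0311), the average of a step of 0.57 from GV and one of 3.61 from MII. Tubb5, a beta tubulin of the spindle, read 2243, 2021 and 1849 at MI, against 1008, 952 and 1484 at GV and 125, 172 and 218 at MII, with a contrast of 2.16 ± 0.23 (adjusted p = 0.0324). Its MI arrays were close together and above GV 3, the highest arrest array, but a second Tubb5 probe set did not lie apart and gave a contrast of 0.28. Lrrc36, which encodes a leucine-rich repeat protein, read 739, 1002 and 1334 at MI, against 608, 387 and 512 at GV and 68.3, 59.3 and 51.9 at MII (contrast 2.37 ± 0.24, adjusted p = 0.0311). Mettl5, a methyltransferase of 18S ribosomal RNA, and Pfdn6, a subunit of the prefoldin chaperone that hands tubulin and actin to the chaperonin, had the same order of stages. Mettl5 averaged 1396 ± 244 at MI, 932 ± 30.8 at GV and 215 ± 42.6 at MII, and Pfdn6 averaged 569 ± 87.5, 301 ± 60.6 and 39.4 ± 21 at those stages (SD, n = 3 each). Tubd1 (delta tubulin), Btf3l4, Pak1ip1 (a factor of ribosome assembly), Plekhh3 and 2810004N23Rik completed this set, with contrasts between 1.17 and 2.36 and adjusted p between 0.0367 and 0.0495 in limma. Other bright probe sets of 2 of these genes had a negative mean MI minus MII, of -1.51 for 2810004N23Rik and of -1.41 and -0.57 for Btf3l4, and Pak1ip1 and Plekhh3 kept their MI arrays apart in only 1 of the 3 other scalings.

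The genes that passed and were low at both arrests were Cstf3, Otulin, Alx1, Zfp869, Cryga and Zglp1. Cstf3, a subunit of the cleavage stimulation factor that helps cut pre-mRNA before polyadenylation, read 304, 469 and 414 on the MI arrays, against 30.4, 53.7 and 32.5 on the GV arrays and 78.2, 31.9 and 94 on the MII arrays. The lowest MI array was 1.54 above the highest arrest array on the log2 scale, and the arrests overlapped each other. Its contrast was 2.63 ± 0.31 (adjusted p = 0.0367), with 2.91 from GV (adjusted p = 0.177) and 2.36 from MII (adjusted p = 0.00731). Cstf3 had 2 probe sets, of which these values are the brighter. Over 19 alternative settings its contrast lay between 1.32 and 2.99, and between 2.45 and 2.81 in those that left out 1 array. Otulin, a deubiquitinase of linear ubiquitin chains, read 167, 184 and 102 at MI, against 18.1, 9.8 and 39 at GV and 7.65, 10.9 and 3.7 at MII (contrast 2.48 ± 0.29, adjusted p = 0.0367). Zglp1, a GATA-type factor of the female germ line, read 50, 108 and 142 at MI, against 13.9, 19.4 and 21.4 at GV and 2.41, 1.56 and 1.4 at MII (contrast 2.15 ± 0.28, adjusted p = 0.0391). Both were dim at GV and near background at MII. Alx1, a homeobox factor of the craniofacial mesenchyme, read 147, 63.5 and 242 at MI, against 5.79, 5.03 and 9.11 at GV and 3.5, 4.25 and 4.94 at MII (contrast 2.80 ± 0.34, adjusted p = 0.0371). Alx1 also had 2 probe sets, and its contrast lay between 1.34 and 4.41 over 19 alternative settings. In those that left out 1 array it lay between 2.41 and 3.26. Zfp869, a zinc finger protein, read 114, 57.5 and 133 at MI, against 6.25, 9.73 and 9.47 at GV and 14.9, 2.83 and 10.8 at MII (contrast 2.19 ± 0.27, adjusted p = 0.0371). Cryga, a crystallin of the eye lens, read 42.1, 41.1 and 61.6 at MI, against 4.02, 2.35 and 4.5 at GV and 2.48, 2.86 and 3.16 at MII (contrast 1.73 ± 0.17, adjusted p = 0.0311). For these 3 genes every arrest array read under 16, which is the background range, so their signal was measurable at MI only.

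Most passes depended on the scaling and on single arrays. Of the 38 genes, 3 passed when 95th percentiles were made equal and 6 with quantile normalization, Ensa among them in both. Among the 18 of these genes with MI arrays apart, most passes other than that of Ensa were also lost when an array was left out. Without MII 1, 28 of the 38 genes passed, and 16 of these 18, Ensa among them. Of the 18, Cstf3, Eif1b, Plekhh3 and 2810004N23Rik also passed without MII 2, Alx1 without MI 2, and Zglp1 without MI 1 alone. Btf3l4 passed in none of the 9 such fits, and the adjusted p over all losses of these 18 genes lay between 0.0503 and 0.206.

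Among regulators of M phase, 4 of 39 measured genes had MI arrays above (10.3%, against 1.64% of all genes) and 1 below. Ensa was described above. Fbxo5 (Emi1), an inhibitor of the APC/C that in mouse oocytes slows cyclin B destruction before metaphase I, read 2559, 1714 and 1452 on the MI arrays, against 933, 1128 and 553 on the GV arrays and 966, 716 and 885 on the MII arrays. All MI arrays were above all others, the arrests overlapped, and GV 2 came closest to the MI arrays. The contrast was 1.12 ± 0.29 and did not pass (adjusted p = 0.163). Bub3, which carries the checkpoint kinases Bub1 and BubR1 to kinetochores, read 1541, 1273 and 2263 at MI, against 867, 977 and 802 at GV and 438, 303 and 259 at MII (contrast 1.59 ± 0.25, adjusted p = 0.0621). Its levels formed 3 separate ranges, with MI on top and MII at the bottom, but a second bright Bub3 probe set had a mean MI minus GV of -0.35 on the log2 scale. Cdc25a, a phosphatase that activates cyclin-dependent kinases, read 926, 833 and 828 at MI, against 791, 719.6 and 353 at GV and 301, 163 and 168 at MII (contrast 1.27 ± 0.31, adjusted p = 0.15), with the MI arrays only just above GV 1. A second bright Cdc25a probe set read 382, 485 and 205 at MI, against 491, 325 and 180.4 at GV and 972, 582 and 645 at MII, with a contrast of -0.46. Haspin, the kinase that marks histone H3 at centromeres to recruit the chromosomal passenger complex, was the gene below and read 318, 214 and 279.7 at MI, against 704, 387 and 521 at GV and 681, 448 and 609 at MII. Its contrast was -0.99 ± 0.25 (adjusted p = 0.163), and GV 2 was the arrest array nearest to MI.

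The APC/C itself, the kinetochore and the spindle held 5 genes above and 0 below. The shares above were 5.56%, 2.94% and 5.66%, against 1.64% of all genes, and 1.14% of all genes lay below. Anapc4, a scaffold subunit of the APC/C, was the only one of 18 genes on that list, and read 1731, 2272 and 2542 on the MI arrays, against 1301, 1409 and 1120.0 on the GV arrays and 888, 1567 and 369.6 on the MII arrays. GV 2 and MII 2 came within reach of MI 1, and its MI arrays were not apart under any of the 3 other scalings (contrast 1.08 ± 0.41, adjusted p = 0.353). Ska3, which couples kinetochores to microtubule ends, was 1 of 34 kinetochore genes and read 1312, 2556 and 945 at MI, against 636, 594 and 929 at GV and 226, 45.2 and 38 at MII (contrast 2.52 ± 0.53, adjusted p = 0.119), with MI 3 barely above GV 3. Of 53 spindle genes, Nusap1, Tubb5 and Haus3 had MI arrays above (5.66%). Nusap1, a protein that bundles spindle microtubules, read 2137, 2094 and 3001 at MI, against 944, 1135 and 1027 at GV and 1249, 709.7 and 1001 at MII. The arrests overlapped, and the MI arrays were 0.74 or more on the log2 scale above MII 1, the highest arrest array (contrast 1.24 ± 0.23, adjusted p = 0.0806). Nusap1 had 2 probe sets, and over 19 alternative settings its contrast fell as low as 0.58. Haus3, a subunit of the augmin complex that branches spindle microtubules, read 3932, 4435 and 3159 at MI, against 2433, 2540.3 and 2622 at GV and 1228, 1069.7 and 768 at MII (contrast 1.25 ± 0.21, adjusted p = 0.0629). None of the 34 genes of cohesin, condensin and the meiotic chromosome axis had MI arrays apart, against 2.78% of all genes.

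**Figure D2:**
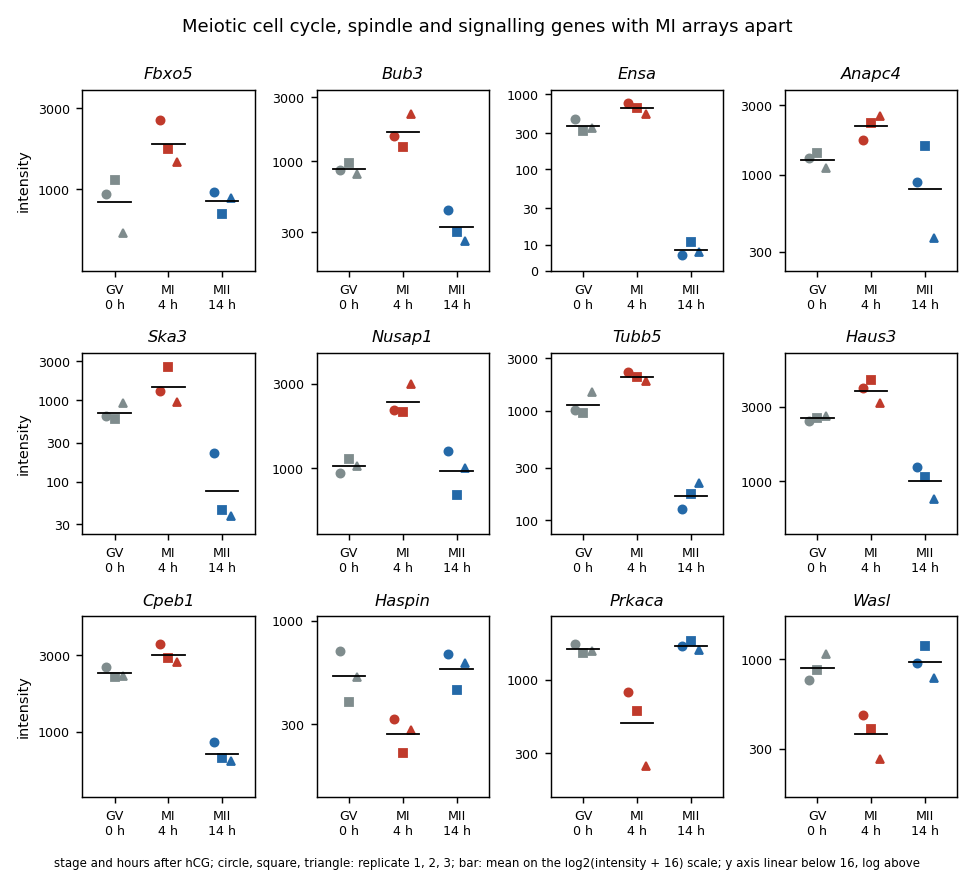
Intensity on each array (points, shaped by replicate) and stage mean (bar) for 12 genes of the meiotic cell cycle, spindle and signalling, by stage and hours after hCG, on an axis that is linear under 16 and logarithmic above it. Fbxo5 and Nusap1 return at MII to the GV range, Ensa, Bub3, Tubb5, Haus3 and Cpeb1 end far below it, and Haspin, Prkaca and Wasl dip at MI.

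Of a panel of 20 textbook regulators of metaphase I, Fbxo5 alone had MI arrays apart (2.78% of all genes did). None passed the contrast in limma, which 0.198% of all genes passed with MI higher and 0.011% with MI lower. Cdk1, the kinase that drives M phase, read 6534, 5497 and 2136 on the MI arrays, against 5606, 2826 and 3687 on the GV arrays and 98, 26 and 107 on the MII arrays, so MI overlapped GV and both were far above MII. Cdc25b, the phosphatase that activates Cdk1 in oocytes, followed the same order with 1731, 1764 and 1731 at MI, against 1202, 1865 and 1406 at GV and 124, 74 and 28 at MII, and its contrast of 2.33 ± 0.35 just missed the threshold (adjusted p = 0.058). Anapc10, Ndc80 and Mastl were intermediate at MI, with MII highest. Ndc80, a microtubule-binding subunit of the kinetochore, averaged 920.3 ± 127 at MI, 221 ± 48.6 at GV and 1301 ± 419 at MII (SD, n = 3 each). Pttg1 (securin) averaged 8388 ± 1186 at MI, 8306 ± 724 at GV and 8448 ± 1270.0 at MII, with overlapping arrays at all stages. Cdc20, the activator of the APC/C at anaphase, was lower on all MI arrays than on all MII arrays, but GV 2 read 899 and lay under them, so it did not meet the rule. Its 2 other bright probe sets were above every GV array and below every MII array at MI, with a mean MI minus GV of 1.09 and 1.15 and a mean MI minus MII of -1.35 and -2.11.

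Among signalling genes of meiotic arrest, Prkaca was the only 1 of 28 with MI arrays apart (3.57% below, against 1.14% of all genes). Prkaca, the catalytic subunit of protein kinase A, read 819, 599.6 and 245 on the MI arrays, against 1786, 1561 and 1603 on the GV arrays and 1733, 1900.4 and 1625 on the MII arrays. The 6 arrest arrays formed a narrow band and all MI arrays lay beneath it, with MI 3 the lowest. The contrast was -1.74 ± 0.34 (adjusted p = 0.096), made up of -1.70 from GV and -1.79 from MII, and only the second step passed (adjusted p = 0.0287). A second Prkaca probe set had a contrast of -0.66 with overlapping arrays. Wasl (N-WASP), which turns on actin branching by the Arp2/3 complex, was the only 1 of 31 genes of polarity and polar body extrusion and read 470.5, 389.6 and 263 at MI, against 753, 863 and 1066 at GV and 950.0, 1190.1 and 778 at MII (contrast -1.30 ± 0.24, adjusted p = 0.0816). A second Wasl probe set also had its MI arrays below all others, with a contrast of -1.18.

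Of 25 genes that prepare the egg for fertilisation, 4 lay above (16%, against 1.64% of all genes), the largest share of the 31 lists. The list had 0 genes below, against 1.14% of all genes. It had 0 passing the contrast, against 0.198% of all genes with MI higher and 0.011% with MI lower. Ppp3r1, the regulatory subunit of the calcium-dependent phosphatase calcineurin, read 379, 448 and 425 at MI, against 202, 212 and 138 at GV and 145, 277 and 179.5 at MII. Its MI arrays were close together and above MII 2, the highest arrest array (contrast 1.09 ± 0.24, adjusted p = 0.136). Orai1, the plasma membrane channel opened when calcium stores empty, read 367, 403 and 419 at MI, against 302, 327 and 183 at GV and 180.0, 285 and 109.7 at MII (contrast 0.82 ± 0.31, adjusted p = 0.348), and a second Orai1 probe set was also apart with a contrast of 1.80. Prkcb, a calcium-dependent protein kinase C, read 71.3, 84.2 and 100.4 at MI, against 22, 49.1 and 3.66 at GV and 8.14, 5.46 and 43.4 at MII (contrast 1.57 ± 0.45, adjusted p = 0.206). Syt1, a calcium sensor of vesicle fusion, read 108, 136 and 107 at MI, against 46.7, 65.3 and 45.5 at GV and 74.1, 97.2 and 96.5 at MII (contrast 0.65 ± 0.19, adjusted p = 0.21). Syt1 was apart under none of the 3 other scalings, Orai1 under 1 and Ppp3r1 under 2. The list's median contrast was 0.43, against 0.01 over all genes, and 0.14 when all probe sets of a gene were averaged.

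Of 51 regulators of maternal mRNA translation and decay, Cpeb1 alone had MI arrays apart (1.96% above, against 1.64% of all genes). Cpeb1 read 3527, 2893 and 2734 on the MI arrays, against 2527, 2204 and 2230.3 on the GV arrays and 856, 687 and 653 on the MII arrays. Its MI arrays lay just above GV 1, and the MI and GV arrays were well above MII (contrast 1.21 ± 0.18, adjusted p = 0.0533), with a step of 0.39 from GV (adjusted p = 0.8) and 2.04 from MII (adjusted p = 0.00182). None of the 8 mRNAs that serve as classical reporters of polyadenylation had MI arrays apart: all 8 were above GV on average and below MII, with medians of 0.64 and -0.73. None of 15 oocyte markers, 11 zona pellucida and growth factor genes, 21 maternal-effect genes or 16 oocyte transcription factors had them apart either. The share over all genes was 2.78%.

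A few translation factors met the rule, in both directions. Among 61 initiation and elongation factors, Eif1b and Eif3d had MI arrays above (3.28%, against 1.64% of all genes). Eif5b, Eif4ebp2 and Eif5 had them below (4.92%, against 1.14% of all genes). Eif5b, the GTPase that joins the ribosomal subunits at the start codon, read 211, 409 and 272 on the MI arrays, against 994, 866 and 605 on the GV arrays and 686, 584 and 1218 on the MII arrays. MI 2 was the highest of the MI arrays and still under MII 2, the lowest arrest array (contrast -1.42 ± 0.32, adjusted p = 0.136). Eif4ebp2, a repressor that sequesters the cap-binding protein eIF4E, read 74.3, 53.1 and 175 at MI, against 194, 374 and 401 at GV and 200.2, 179 and 464 at MII (contrast -1.49 ± 0.44, adjusted p = 0.22), with MI 3 close to MII 2. It was apart in only 1 of the 3 other scalings, and its 2 other bright probe sets gave contrasts of 0.0097 and -0.93. Eif5, the GTPase activator of the scanning ribosome, read 1578, 1569 and 1303 at MI, against 1822, 2028 and 1886 at GV and 3678, 2669 and 1811 at MII (contrast -0.59 ± 0.24, adjusted p = 0.39), and its other bright probe sets gave contrasts of 0.86, -0.04 and -0.05. Eif3d, a subunit of the initiation factor eIF3, exceeded GV by 0.26 and MII by 1.53 and was apart in none of the other scalings.

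Ribosomal proteins had a high contrast without being highest at MI. The 50 cytosolic ribosomal proteins had a median contrast of 1.47, yet their median was -0.18 against GV and 3.00 against MII. Of them, 38 passed the step between MI and MII with MI higher, as did 6.78% of all genes. The step between MI and GV was passed by 0 of them and by 0 of all genes. Of the 50, Rpl7l1 and Rps25 had MI arrays above (4%, against 1.64% of all genes). Rps25, a protein of the small subunit, read 53.7, 173 and 86.1 on the MI arrays, against 20, 27.3 and 4.29 on the GV arrays and 3.48, 8.58 and 7.69 on the MII arrays, a dim gene whose MI arrays were all above its arrest arrays (contrast 2.05 ± 0.36, adjusted p = 0.0699). Of 77 mitochondrial ribosomal proteins, Mrpl2, Mrpl39 and Mrps34 were above (3.9%, against 1.64% of all genes). Mrpl2 read 541, 631 and 478 at MI, against 226, 272 and 391 at GV and 340.2, 198 and 158 at MII (contrast 1.07 ± 0.28, adjusted p = 0.175), and Mrps34 read under 16 on every array. Of 83 genes of oxidative phosphorylation, Cox7b2 alone was apart, below (1.2%, against 1.14% of all genes), and it too read under 16 throughout. Rars, the arginyl-tRNA synthetase, was the only 1 of 21 such enzymes and read 2066, 3516 and 2828 at MI, against 1530.1, 1971 and 1789 at GV and 457, 678 and 361 at MII (contrast 1.55 ± 0.26, adjusted p = 0.0639), but it was apart in none of the 3 other scalings.

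Of 47 proteasome genes, Psmd12 and Psmd14 of the regulatory lid had MI arrays above (4.26%, against 1.64% of all genes) and Psmb8 of the immunoproteasome below (2.13%, against 1.14%). Psmd12 read 1598, 1822 and 1461 at MI, against 1250.5, 768 and 997 at GV and 524, 571 and 369.8 at MII (contrast 1.21 ± 0.23, adjusted p = 0.0806), Psmd14 exceeded GV by 0.42 and MII by 2.67, and Psmb8 was at background on all arrays. Of 87 ubiquitin-conjugating and deubiquitinating enzymes, 3 conjugating enzymes (Ube2t, Ube2v2 and Ube2e1) lay above and 3 deubiquitinases (Otud3, Usp15 and Usp13) below (3.45% each). Ube2t, the conjugating enzyme of the Fanconi anaemia pathway, read 2109.5, 1950.2 and 1689.8 on the MI arrays, against 972, 1133 and 888 on the GV arrays and 1246, 821 and 671 on the MII arrays. Its MI arrays were all above MII 1, the highest arrest array, and the arrests overlapped (contrast 1.02 ± 0.23, adjusted p = 0.136). Ube2t had 2 probe sets, and over 19 alternative settings its contrast fell as low as 0.30. Ube2v2 and Ube2e1 had contrasts of 1.31 ± 0.31 and 1.10 ± 0.21, and that of Ube2v2, with 4 probe sets, fell as low as 0.39 over the settings. Otud3 read 826, 561 and 315 at MI, against 2754, 1046 and 1595 at GV and 2371, 1072 and 1862 at MII, with all MI arrays under GV 2 (contrast -1.63 ± 0.42, adjusted p = 0.17), but a second bright probe set gave -0.19. Usp15 read 1958, 1654 and 965 at MI, against 2236, 2235 and 2065 at GV and 2958, 3172 and 2325 at MII (contrast -0.75 ± 0.25, adjusted p = 0.285), with MI 1 just under GV 3. Fbxo10, an F-box protein, was the 1 gene below among 78 cullin, F-box and SCF ligase genes (1.28%; contrast -0.54 ± 0.18, adjusted p = 0.272).

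No replication or repair gene passed the contrast, which few genes passed at all (0.198% of all genes with MI higher and 0.011% with MI lower). Of 47 replication genes, Orc5 of the origin recognition complex and Gins2 of the replicative helicase lay above (4.26%, against 1.64% of all genes), and Mcm2 of the helicase ring below (2.13%, against 1.14%). Orc5 read 2269, 2106 and 2545 at MI, against 1669.6, 1443 and 1835 at GV and 1246, 950.1 and 1045 at MII (contrast 0.79 ± 0.18, adjusted p = 0.136), and Mcm2 read 1661, 1290.0 and 1553 at MI, against 1900.2, 1833 and 1750.0 at GV and 2663, 2055 and 3012 at MII (contrast -0.53 ± 0.19, adjusted p = 0.317). Orc5 was lowest at MII with GV between, whereas Mcm2 at MI lay just under GV 3 and was highest at MII. Mcm2 was apart in only 1 of the 3 other scalings. A second bright Gins2 probe set had a contrast of 0.14 and a mean MI minus GV of -0.39. Of 44 repair genes, Rad51c and Apex1 lay above (4.55%) and Brca1 below (2.27%). Apex1, the main endonuclease of base excision repair, read 774, 672 and 951 at MI, against 390.5, 432 and 595 at GV and 367, 268 and 160.4 at MII (contrast 1.17 ± 0.28, adjusted p = 0.149). Brca1, a factor of homologous recombination, read 851, 786 and 660.5 at MI, against 987, 1395 and 1492 at GV and 1116, 1457 and 1281 at MII (contrast -0.73 ± 0.20, adjusted p = 0.197), but its 2 other bright probe sets gave 0.04 and -0.19.

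Lists of RNA processing, chromatin and membrane traffic also held members. Over all genes, 1.64% lay above and 1.14% below. The spliceosome share above was near that of all genes, and the membrane traffic share above was under it. Srsf1, a splicing factor, was the 1 of 54 spliceosome genes above (1.85%), with a contrast of 0.92 ± 0.21, and its other 4 bright probe sets, with contrasts between 0.056 and 1.23, were not apart. The nuclear pore had Nup43 above and Nup93 below among 32 genes (3.12% each), and Nup93 was apart in none of the other scalings. Among 81 chromatin enzymes, Tet1 and Setd7 lay above (2.47%) and Hdac11 below (1.23%). Tet1, a dioxygenase of methylated cytosine, reached 103 on MI 2 but read 13.1 and 15.4 on the other MI arrays. Setd7 was dim and Hdac11 near background. Setd7 was apart in none of the 3 other scalings, and Tet1 and Hdac11 in 1 each. Among 168 genes of the endoplasmic reticulum, Golgi and vesicle traffic, 1 lay above (Sec62, of the translocon; 0.595%) and 4 below (2.38%). Trappc10, of a vesicle tethering complex, read 1015, 831 and 495 at MI, against 1556, 1623 and 1378 at GV and 2373, 1496 and 1817 at MII (contrast -1.15 ± 0.26, adjusted p = 0.139). Vps35, the core of the retromer, had a contrast of -0.50 ± 0.17 (adjusted p = 0.297). Rab36 read 14.3, 9.18 and 12.6 at MI, against 26.6, 18.8 and 21.3 at GV and 63.5, 20 and 23.2 at MII, and Vps37d was at background. Bag6, a chaperone of tail-anchored proteins, was the 1 gene below among 83 heat-shock proteins and chaperonins and read 88.5, 41.5 and 43.5 at MI, against 257, 505 and 156 at GV and 249, 104 and 199 at MII (contrast -1.73 ± 0.42, adjusted p = 0.149).

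**Figure D3:**
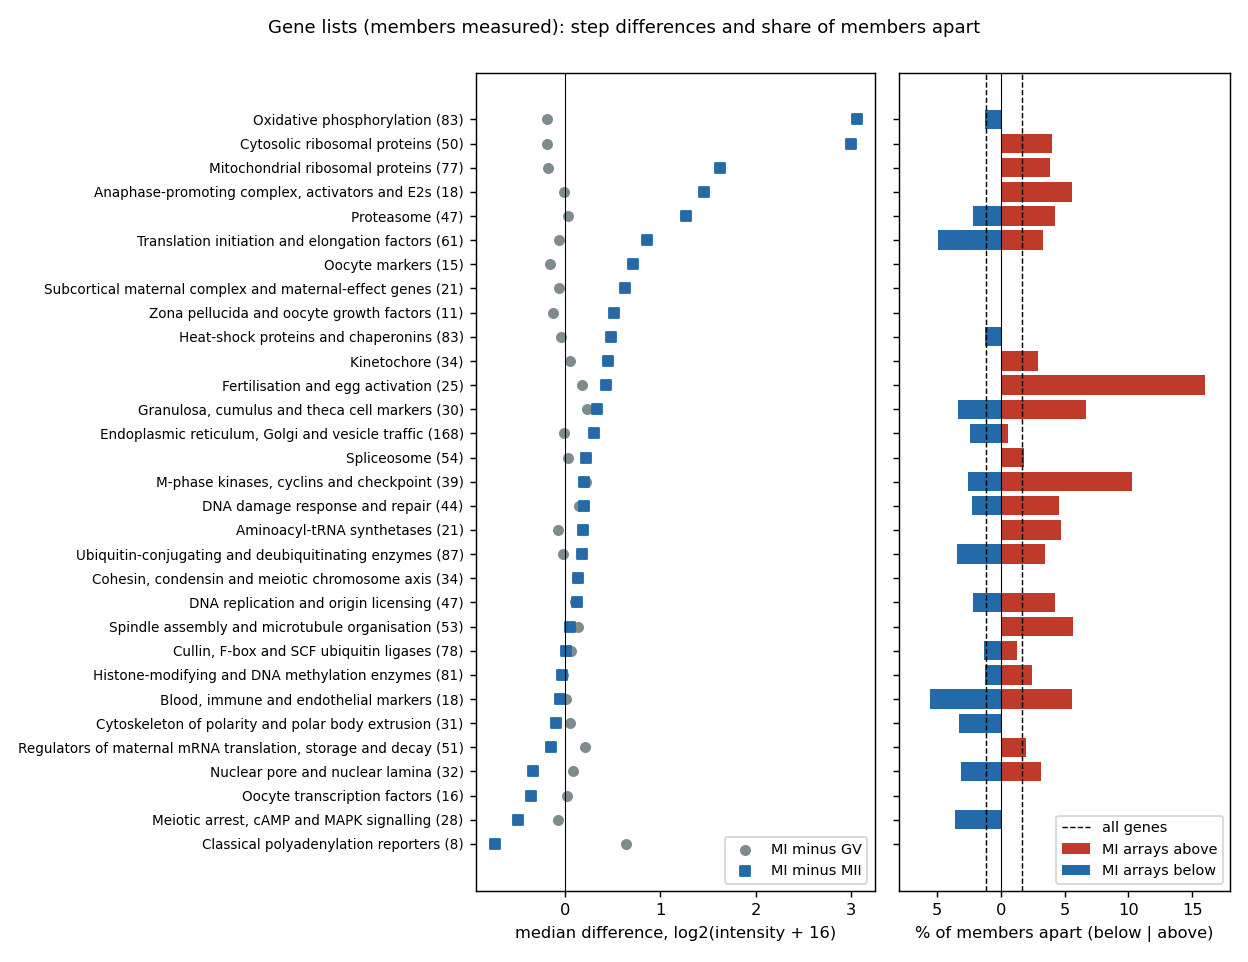
Left, the median of MI minus GV (grey circles) and of MI minus MII (blue squares) for each gene list, on the log2(intensity + 16) scale; right, the percent of each list with MI arrays below (to the left of 0) or above (to the right), with dashed lines at 1.14% and 1.64% for all genes. Oxidative phosphorylation and cytosolic ribosomal proteins have the widest separation of the steps (medians of -0.18 and about 3), and fertilisation and egg activation has the highest share above, at 16%.

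Markers of other cells also met the rule. Of the 30 granulosa, cumulus and theca markers, Tnfaip6 and Col3a1 lay above (6.67%, against 1.64% of all genes) and Amhr2 below (3.33%, against 1.14%). Tnfaip6, a component of the expanding cumulus matrix, read 75.9, 77.4 and 45.8 on the MI arrays, against 2.44, 4.86 and 4 on the GV arrays and 3.08, 23.7 and 2.19 on the MII arrays. It was highest on MI 1 and MI 2, not on MI 3, and near background on all but 1 arrest array (contrast 1.90 ± 0.29, adjusted p = 0.0621). Col3a1 read under 20 on every array, and Amhr2, the receptor of anti-Müllerian hormone in granulosa cells, read 27.6, 24.9 and 21.8 at MI, against 36.8, 173 and 52 at GV and 45.3, 43.9 and 41.6 at MII. Of 18 blood, immune and endothelial markers, Cd68 of macrophages lay above with 42.1, 43.8 and 104 at MI, against 4.87, 8.32 and 6.48 at GV and 13.9, 4.23 and 38.9 at MII, and Lyz2 lay below at background. Cd68 was apart in none of the 3 other scalings. Leaving out MI 3 gave 907 genes with MI arrays above and 535 below. Leaving out MI 1 gave 664 and 588 and leaving out MI 2 gave 581 and 529, as fewer arrays have to agree.

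The largest distances above the nearer arrest belonged to genes with no common list, and the MI arrays often disagreed among themselves. After Alx1, they were Bex1, Coa3, Tpm4, Cstf3, Nfatc2, Rpl7l1, Zfp869, Sh2d6, Otulin, H2-Oa and Cog8. Bex1, an X-linked protein of neurons, read 58.7, 541 and 202 on the MI arrays, against 11.6, 17.9 and 26 on the GV arrays and 50.7, 2.84 and 2.86 on the MII arrays. Its MI arrays were spread widely and MI 1 was only just above MII 1. Bex1 was apart in none of the 3 other scalings. Coa3, an assembly factor of cytochrome c oxidase, read 297, 423 and 193 at MI, against 183, 5.97 and 18.3 at GV and 2.77, 74.2 and 20.5 at MII, so GV 1 reached nearly to MI 3 while the other arrest arrays were low. Tpm4, a tropomyosin of the actin cytoskeleton, read 85.8, 89.2 and 493 at MI, against 33.4, 17 and 1.97 at GV and 40.1, 1 and 4.46 at MII, led by MI 3. Nfatc2, a calcium-regulated transcription factor, read 5374, 341 and 203 at MI, against 157, 100.3 and 175 at GV and 184, 131 and 95.4 at MII, and MI 1 alone carried most of the mean. Rpl7l1, a relative of a large ribosomal subunit protein, read 1393, 319 and 200.0 at MI, against 73.2, 57.7 and 136 at GV and 5.76, 10 and 5.47 at MII, again with MI 1 far above the rest. H2-Oa, of the antigen-loading machinery, and Cog8, of a Golgi tethering complex, were also highest on MI 1, at 2637, 449.9 and 668 for H2-Oa and 1224, 745 and 619 for Cog8 on the MI arrays. Sh2d6 read 75.3, 114 and 381 on the MI arrays and at most 28.6 on the others. Only Alx1, Cstf3, Zfp869 and Otulin of these 12 passed the contrast. For Cog8, both other bright probe sets had contrasts below 0 (-0.40 and -0.71). Across all 299 genes above, the MI arrays spanned more than 4-fold in 20.

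**Figure D4:**
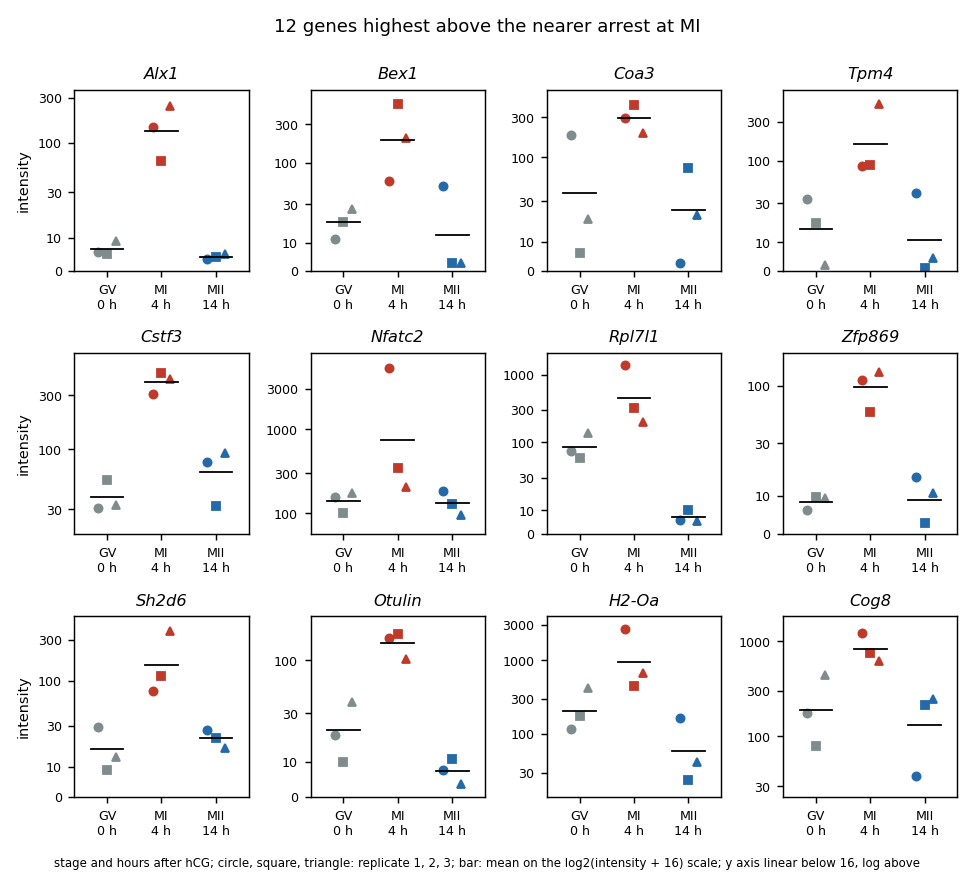
Intensity on each array (points, shaped by replicate) and stage mean (bar) by stage and hours after hCG for the 12 genes that exceeded the nearer arrest most, on an axis that is linear under 16 and logarithmic above it. Cstf3 and Otulin have closer MI arrays, whereas Nfatc2 rests on MI 1 (5374) and Tpm4 on MI 3 (493).

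The largest distances below the nearer arrest had 1 pass among them. Poglut2, which adds glucose to epidermal growth factor repeats of secreted proteins, read 42.3, 20.1 and 64.7 on the MI arrays, against 143, 235 and 196 on the GV arrays and 4009.7, 1300.2 and 1109.6 on the MII arrays. Its signal was lowest at MI, intermediate at GV and highest at MII with no overlap, and the contrast was -3.46 ± 0.45 (adjusted p = 0.0391), with -1.88 from GV (adjusted p = 0.493) and -5.03 from MII (adjusted p = 0.00202). A second Poglut2 probe set was high at MII as well but overlapped between MI and GV. Itgb1bp1, which binds the tail of beta 1 integrin, read 167, 212 and 40.7 at MI, against 1054, 489.6 and 392 at GV and 358, 1359 and 382 at MII. Zbtb34, a zinc finger protein, read 91.7, 58.2 and 4.84 at MI, against 117, 571 and 166 at GV and 490.0, 191 and 374 at MII. In both genes MI 3 was far under the other MI arrays. Apcdd1, an inhibitor of Wnt signalling, and Snx5, a sorting nexin of the endosome, were near background at MI. Apcdd1 read 13.3, 7.05 and 17.3 at MI, against 108, 41.6 and 241 at GV and 347, 20 and 90 at MII, and Snx5 read 15, 3.71 and 16.4 at MI, against 106, 125 and 1972 at GV and 23.7, 65.7 and 332 at MII. Their arrest arrays were widely scattered, and 1 MII array of each came close to MI.

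Ddx59, a DEAD-box RNA helicase, read 226, 189.9 and 207 on the MI arrays, against 754, 439 and 736 on the GV arrays and 665, 3128 and 428 on the MII arrays, with close MI arrays under all others (contrast -1.83 ± 0.56, adjusted p = 0.245). Parp4, the ADP-ribose polymerase of vault particles, read 29.3, 23.6 and 23.2 at MI, against 41.4, 264 and 149 at GV and 69.7, 262 and 325 at MII, and Erbb3, a receptor of neuregulin, read 20.9, 25.7 and 26.9 at MI, against 68.9, 273 and 39.6 at GV and 38.8, 290.0 and 140.2 at MII. The MI arrays of both were tight and low, and their arrest arrays were widely spread. Mgat4a, an enzyme that branches N-glycans, and Gpatch2l rested on MI 3, at 619.9, 469 and 80.2 and 187, 137 and 18.8 on the MI arrays, and their nearest arrest arrays read 625 and 192. A second bright Gpatch2l probe set had a contrast of 1.62. The genes below with the smallest p after Poglut2 were Smoc2, Me2, Tecr and Wasl. Smoc2, a secreted calcium-binding matrix protein, read 382, 365 and 334 at MI, against 834, 1182 and 685 at GV and 791, 1104 and 1160.2 at MII (contrast -1.34 ± 0.23, adjusted p = 0.0641). Me2, the mitochondrial malic enzyme, read 187, 252 and 149.7 at MI, against 509, 992 and 934 at GV and 422, 414 and 345 at MII (contrast -1.45 ± 0.27, adjusted p = 0.0799). Tecr, the last enzyme of very long chain fatty acid elongation, read 148, 137 and 205 at MI, against 654, 1169 and 1419 at GV and 252, 683 and 561 at MII (contrast -1.99 ± 0.37, adjusted p = 0.0806). Smoc2 was similar at both arrests, whereas the means of Me2 and Tecr were highest at GV.

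**Figure D5:**
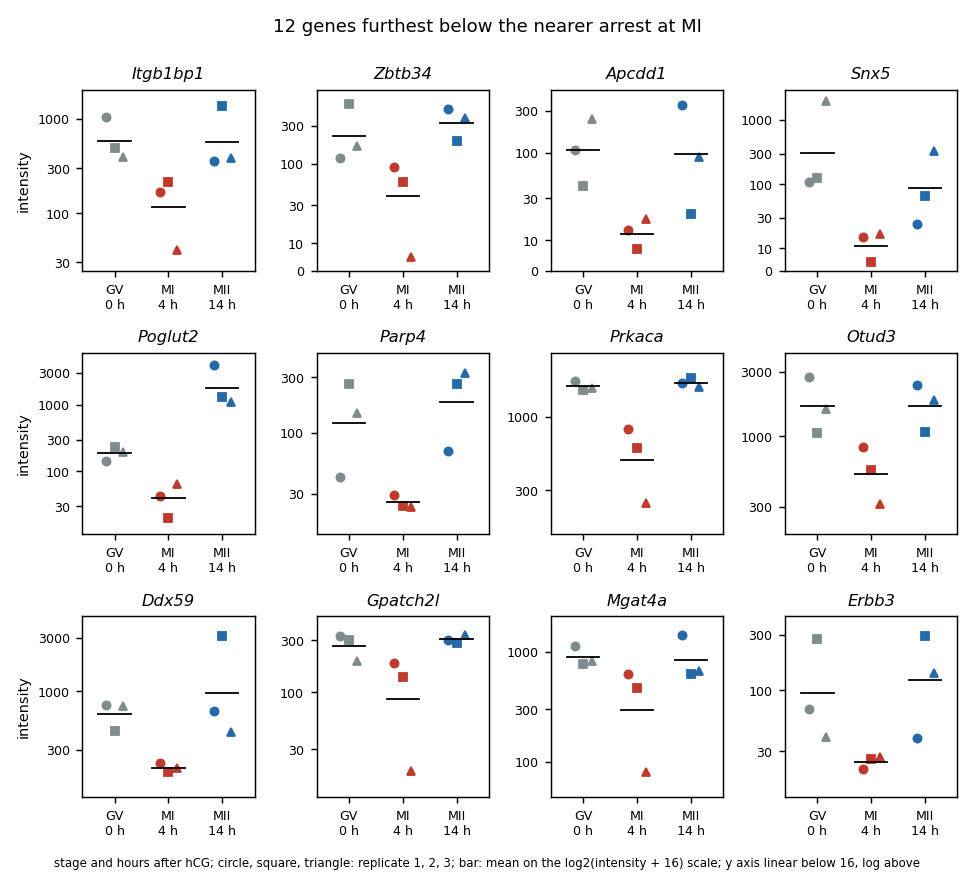
Intensity on each array (points, shaped by replicate) and stage mean (bar) by stage and hours after hCG for the 12 genes furthest under the nearer arrest, on an axis that is linear under 16 and logarithmic above it. Poglut2, Prkaca and Ddx59 have the widest gaps (0.98, 0.92 and 0.87 on the log2 scale), and Zbtb34, Gpatch2l and Mgat4a are pulled down by MI 3.

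Other probe sets of the same genes, which the rule did not use, gave a second reading on the same arrays. Of 89 further bright probe sets (no dimmer than the median gene) in 62 genes above, 24 also had their MI arrays above (27%, against 1.71% of all 5804 such probe sets), and 50 had both steps above 0 (56.2%, against 22.5%). Of 68 in 50 genes below, 7 also had their MI arrays below (10.3%, against 1.26%), and 38 had both steps below 0 (55.9%, against 22.9%). Probe sets of a gene share its transcripts and the RNA of each array, so they repeat the measurement of the probe and not of the oocytes. In all, 18 genes above and 6 below had a second probe set apart, and those named next were picked after their values were seen.

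Cdkn1b (p27), an inhibitor of cyclin-dependent kinases, read 822, 779 and 839.6 on the MI arrays, against 262, 183 and 329 on the GV arrays and 278, 429.8 and 388 on the MII arrays. Its MI arrays were nearly equal and clear of both arrests, and the contrasts of its probe sets were 1.39 and 1.52. Cited2, which binds the coactivators CBP and p300, read 1556, 2459 and 2570.2 at MI, against 663, 673 and 542 at GV and 678, 1075 and 1036 at MII (contrasts 1.49 and 1.56). Med6, a subunit of the Mediator complex, read 1339, 1341 and 1380.4 at MI, against 491, 511 and 986 at GV and 298, 547 and 197 at MII, and both of its other bright probe sets were also apart. Hmgb2, a chromatin protein that bends DNA, read 3226, 3810.0 and 7733 at MI, against 1615, 2101 and 2807 at GV and 988, 1154 and 1396 at MII (contrasts 1.53 and 1.29), but another, dimmer probe set had a mean MI minus MII of -1.69. Pa2g4, a growth regulator that binds ribosomes, read 1422, 1302 and 2168 at MI, against 1029, 599.7 and 1025 at GV and 988, 582 and 382 at MII, and all 4 of its other bright probe sets were apart. Tial1, an RNA-binding protein of stress granules, read 996, 1025 and 963 at MI, against 489.9, 463 and 817 at GV and 580.4, 532 and 468 at MII. Taf7, a subunit of the general factor TFIID, read 2047, 1597 and 2088 at MI, against 1097, 964 and 959 at GV and 1179, 1276 and 1384 at MII but was apart in only 1 of the 3 other scalings. Further bright probe sets of Tial1 and Taf7 gave contrasts of 0.12 and -0.86. The remaining genes above were Anapc4, Apex1, Ccdc28b, Ms4a6d, Nudt7, Orai1, Sec62, Sem1, Snrnp40, Ssb and Ssbp1. Of these, Anapc4, Snrnp40 and Ssb were apart in none of the 3 other scalings and Orai1 in only 1. The genes below were Crk, E2f5, Mcm2, Parp4, Usp15 and Wasl, of which Mcm2 was apart in only 1 of those scalings. Crk, an adaptor of tyrosine kinase signalling, read 787, 729 and 478 at MI, against 1313, 971 and 902 at GV and 1276, 1283 and 1557 at MII, and both of its other bright probe sets had MI arrays below all others.

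At the edge of the rule, the genes just inside it above were Susd1 and St6gal2, with lowest MI arrays of 4.07 and 2.30 against highest arrest arrays of 4.06 and 2.27. Just outside were Bend7 and Muc1, where an MI array and the arrest arrays all read 1. Just inside it below was Cpox, an enzyme of haem synthesis, with a highest MI array of 109.84 against 109.89 on GV 3, and Trmt61b, at 9.55 against 9.56. Just outside were 1700022A22Rik and Adat3, whose MI arrays all read 1. The table holds 14060 values of exactly 1 (3.46%), which appears to be its floor, and 89 of the genes above and 100 of those below had a higher side under the median signal of all genes (an intensity of 37.5).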

How the data were processed

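Mouse oocyte mRNA bound to polysomes was hybridised to 9 arrays. The table that the authors deposited holds linear intensities, 1 per probe set on every array. How probes were summarised, background-corrected and scaled is not given in the sources used here, and the labels call the 3 samples of a stage biological replicates from independent sets, so p-values measure the spread between those sets. Depth has no meaning for arrays, and their number limits the precision. Of 45101 probe sets, 64 controls, 932 with several gene symbols and 9160 with none were left out. The brightest of the remaining 34945 (highest mean of log2(intensity + 16)) stood for each of 18193 genes, of which 9010 had more than 1. A RefSeq table of assembly GRCm38.p6 held 18032 of the genes and changed 0 symbols. The rule for inclusion is a description with no test.

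One linear model of the 3 stage means was fitted in limma 3.58.1 (lmFit, eBayes; R 4.3.3) to log2(intensity + 16) from the 9 arrays together, without a filter on low signal. Contrasts were MI minus the average of GV and MII, MI minus GV and MI minus MII, all two-sided, with Benjamini-Hochberg adjustment over 18193 genes. The 2 steps share the MI arrays and are given side by side. The fit was tested on simulated data. Values with ± beside a contrast are standard errors, and beside a mean the SD of 3 arrays.

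Named genes were the 12 above and 12 below furthest from the nearer arrest and the 5 of each with the smallest p, with the higher side at or above an intensity of 37.5 and predicted genes left out. To these were added up to 4 genes apart per list (31 lists), 20 metaphase I regulators, and the 2 genes on either side of the limit. Other genes were named after their values were seen. The members and lists were chosen with earlier results of these data known. Same-numbered samples of different stages had correlations of their deviations between 0.0091 and 0.209, above 0.1 in 5 of 9 pairs. Differently numbered samples of different stages had correlations between -0.232 and 0.105, so same-numbered samples may share some variation. No label says that a number marks 1 set across stages, so the main fit did not pair samples, and a fit with replicate number as a block is given as an alternative. Alternatives covered the scaling, the pseudocount, a filter on dim genes, the choice of probe set, an intensity trend, a replicate block and leaving out each array.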

Additional observations from a re-analysis of the deposited data

How the results depend on the processing

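The counts of genes that passed depended on nearly every setting. Of the 36 higher and 2 lower at MI, quantile normalization left 6 and 0, centring on the array median 15 and 2, scaling to the 95th percentile 3 and 0, a pseudocount of 1 gave 5 and 0 and of 64 gave 114 and 8, removing the dimmest 40% of genes 13 and 1, averaging probe sets 53 and 1, an intensity trend 49 and 1, and choosing the brightest probe set by linear intensity (added after the data were seen) 45 and 2. With the replicate block 0 and 0 passed (smallest adjusted p 0.0907, with 1566 and 690 at an unadjusted p under 0.05). Leaving out 1 array gave 2 to 66 higher and 0 to 4 lower. Genes that were apart and passed, 17 above and 1 below, numbered in these settings, in the same order, 4 and 0, 9 and 1, 2 and 0, 4 and 0, 42 and 3, 8 and 1, 23 and 0, 17 and 1, 19 and 1, and 0 and 0, and 1 to 27 and 0 to 2 without 1 array. Of the original 18, those settings kept 4, 10, 2, 4, 18, 9, 13, 12, 18 and 0, and 1 to 16 were kept without 1 array. The 299 genes above became 195 and the 207 below 430 with median centring, which moved the median contrast of all genes to -0.0991, and 125 stayed below without dim genes. The cause was not tested, except that leaving out 1 array (357 to 907 above, 262 to 588 below) makes the rule easier to meet. No setting gave a gene that passed both steps. The contrast of Cog8 turned to -0.40 with the probe set brightest on the linear scale and that of Gpatch2l to 0.032 with averaged probe sets. Near 0, Pttg1 turned to 0.063 with quantile values and 0.070 with averaged probe sets, Bend7 to -0.0067 and Muc1 to -0.021 with median centring. Without 1 array, Pttg1 (-0.074 to 0.12), Mos (-0.27 to 0.17), Ccnb2 (-0.18 to 0.57) and Fbxo43 (-0.36 to 0.70) also changed sign. Near background, intensities limit what can be seen, and no detection calls were used here.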
